A study of Homo sapiens with 6 samples.

Results

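The 56 genes described here encode the proteins that license, fire and copy DNA replication origins, together with the enzymes that supply the deoxynucleotides. They were chosen by gene symbol from the deposited expression table of 35856 genes, by a rule that reads no measured value, although earlier results of these data were known when the list was drawn up, and each of the 56 symbols matched 1 gene. RNA was sequenced from HCCLM3, an established human hepatocellular carcinoma line, in 2 groups of 3 libraries, to ask how the cells respond to the long non-coding RNA LINC00862. The LINC00862 group had been transfected with a vector carrying LINC00862, and the control group, NC, with the empty vector. The labels give both groups as HCCLM3 and do not say whether they came from one stock of cells. Poly(A) RNA was made into strand-marked libraries with molecular identifiers in the adapters. The sources used here do not say whether the sequenced cells were transient or stable transfectants, nor whether the 3 libraries of a group came from separate cultures, so p-values measure only the spread between these libraries.

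Replication is licensed in G1, when the origin recognition complex, CDC6 and CDT1 load the MCM2-7 helicase onto DNA as an inactive double ring, and geminin (GMNN) holds CDT1 back once S phase has begun. The kinase CDC7 with its partner DBF4, together with CDC45 and the GINS complex, turns the loaded ring into a running fork, where polymerases, the PCNA clamp and its loader copy both strands. Many of these genes are transcribed at the passage from G1 to S by E2F factors, and their transcripts are abundant in dividing tumour cells and scarce in resting liver.

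Words that E2F factors bind were looked for in the promoters of these genes. RefSeq promoter windows on GRCh38.p14, running from 250 bases before to 50 bases after a transcription start, were at hand for 49 of the 56 genes. The 4 E2F words searched were TTTCCCGC, TTTCGCGC, TTTGCCGC and TTTGGCGC, each on both strands, and words on opposite strands can overlap. At least 1 word lay in a window of 23 of the 49 genes (46.9%), of 6.16% of the 12709 tested genes with an entry and of 3.99% of all 27305 genes with an entry. The cell cycle homology region, or CHR, is a word of mitotic promoters, searched as TTTGAA and TTCGAA on both strands. It was found in 3 of the 49 genes (6.12%), in 15.9% of the tested genes and in 11 of 15 mitotic genes (73.3%). The CCAAT box (CCAAT, both strands) was found in 61.2% of the 49 genes and 42.6% of the tested genes, and the GC box (GGGCGG, both strands) in 79.6% and 72.2%. A match describes letters in a window and not a bound site.

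Stretches of 80 bases are shown for GMNN, POLA1 and MCM6, whose windows held an E2F word outside annotated exons, with the E2F words in capitals. The MCM6 stretch, from position -157 to position -78, held 4 words in 2 overlapping pairs.
GMNN, chr6:24775328-24775407, plus strand: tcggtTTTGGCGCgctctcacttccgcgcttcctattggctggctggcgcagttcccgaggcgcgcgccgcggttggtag
POLA1, chrX:24693776-24693855, plus strand: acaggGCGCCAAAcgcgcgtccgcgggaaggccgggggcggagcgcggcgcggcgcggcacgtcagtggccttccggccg
MCM6, chr2:135876521-135876600, minus strand: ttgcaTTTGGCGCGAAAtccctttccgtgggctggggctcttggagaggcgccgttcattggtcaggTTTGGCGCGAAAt

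Sites of 28 bases are shown for 8 of the other genes with an E2F word, again with the word in capitals. These 8 were picked for their large falls, each close to 4-fold or more, so they do not show whether falls go with the word. The word was also found in genes that changed less, such as CDT1 (log2 fold change -0.69) and CDC6 (-0.32, not called). TYMS, which fell most of the 56, also held a word and is named only. Counted from 0 at the first transcribed base, the word began at -5 in CLSPN and POLE2, at -34 in CDC7, at -53 in POLA2 and at -59 in PCNA, and at 2 in MCM2, 5 in GINS1 and 26 in MCM8.
CLSPN, chr1:35769966-35769993, minus strand: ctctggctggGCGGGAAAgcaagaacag
CDC7, chr1:91501068-91501095, plus strand: ccgacctgcgGCGGGAAAgtcgcgcgcc
PCNA, chr20:5126664-5126691, minus strand: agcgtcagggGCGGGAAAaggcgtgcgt
MCM2, chr3:127598403-127598430, plus strand: gtgaaccactTTTCGCGCGAAAcctggt
GINS1, chr20:25407668-25407695, plus strand: gctttgttcgGCGCCAAAgcgcggagcg
MCM8, chr20:5950668-5950695, plus strand: gatcactgaaGCGCCAAAaaagaattta
POLA2, chr11:65261899-65261926, plus strand: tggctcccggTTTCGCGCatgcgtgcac
POLE2, chr14:49688202-49688229, minus strand: tgcggcggtgGCGCCAAAtcgcaaatat

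**Figure D1:**
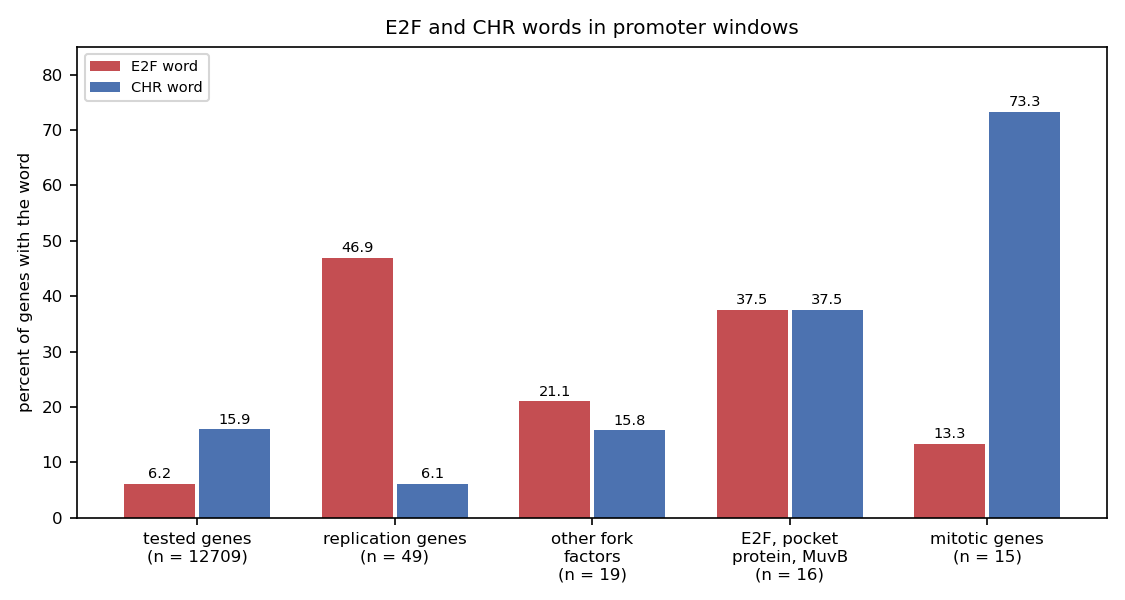
Percent of genes (vertical axis) with at least 1 E2F word (red bars) or CHR word (blue bars) in a promoter window, for the tested genes, the replication genes and 3 other gene lists, with the number of genes under each. The replication genes stood at 46.9% for the E2F word and 6.12% for the CHR word, and the mitotic genes at 73.3% for the CHR word.

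Total counts lay between 58241123 and 68229070 per library, and all 56 genes passed the filter on low counts. The lowest count of any of them in any library was 80, for MCM9, and 55 had at least 100 counts in every library, so depth limited few of them. LINC00862 itself had 11, 21 and 6 counts in the NC libraries and 145, 121 and 76 counts in the LINC00862 libraries, in the direction of the labels. The groups also differed beyond replication. Mitochondrially encoded genes took 8.34 to 12.1% of counts in NC and 20.7 to 31.7% in LINC00862. Of 7 hepatocyte markers, 5 were higher and 1 lower, with a summed level of 2.94 to 3.46 FPKM in NC and 539 to 618 FPKM in LINC00862. That sum was mostly FGB, a fibrinogen chain, at 1.68 to 1.88 FPKM in NC and 525 to 598 FPKM in LINC00862, while ALB, albumin, was at most 0.0234 FPKM in NC and 1.71 FPKM in LINC00862. Of 4 fetal liver and hepatoma markers, 1 was higher and 1 lower. Their sum was 0.166 to 0.297 FPKM in NC and 0.249 to 0.406 FPKM in LINC00862, so these 4 genes were near 0 in both groups. Of 6 fibroblast markers, 1 was higher and 2 lower, with a sum of 44.6 to 55.5 FPKM in NC and 9.96 to 14.3 FPKM in LINC00862, and 5 epithelial markers, 4 of them higher, summed to 194 to 287 and 437 to 500 FPKM. The fibroblast sum was mostly THY1 in NC, at 37.7 to 49.1 FPKM against 0.0964 to 0.11 FPKM in LINC00862, where it was mostly COL1A1, which rose. EPCAM, an epithelial surface protein, had 0.475 to 0.636 FPKM in NC and 148 to 169.5 FPKM in LINC00862. Endothelial and blood markers, 4 genes each, summed to at most 1.74 and 3.14 FPKM in NC and 5.89 and 7.47 FPKM in LINC00862, with 1 gene higher in each. The part of these differences in the replication genes' levels was not tested, and an effect of LINC00862 and any other difference between the cells or cultures of each group cannot be told apart. In bulk RNA, fewer dividing cells and less RNA per cell cannot be told apart either. The NC libraries deviated from their mean with gene length, with Spearman's rho of 0.58 in replicate 1, -0.33 in replicate 2 and -0.50 in replicate 3 across 11071 genes of at least 100 counts, which share a library and are not independent replicates. In the LINC00862 libraries rho lay between -0.16 and 0.14. Across the same genes the fold change between groups had a rho of 0.01 with length, and across the 56 replication genes it was 0.17.

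Replication transcripts were lower in LINC00862 in every role. In edgeR's quasi-likelihood fit, with p adjusted by Benjamini-Hochberg over the 20741 genes tested, 50 of the 56 genes fell, none rose, and 6 were not called. Among all tested genes 29.8% were called lower, 34.4% higher and 64.2% in either direction, and among the 12357 with a mean of at least 1 FPKM 38.9% were called lower. At an unadjusted p under 0.05 again 0 of the 56 were higher, and DESeq2 called 51 lower and 0 higher. The fall was at least 2-fold in 42 genes, a size that 20.9% of all tested genes and 24.7% of those at 1 FPKM or above reached. The median log2 fold change of the 56 was -1.49, against 0.11 over all tested genes.

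In 55 of the 56 genes the FPKM of every LINC00862 library was below that of every NC library, which held for 36.6% of all tested genes. On CPM scaled by TMM, edgeR's trimmed-mean scaling, 51 of the 56 did not overlap, against 32.7% of all tested genes. With 3 libraries against 3, an exact two-sided permutation test on FPKM cannot go below p = 0.1, and those 55 genes reached it. Mean levels in LINC00862 ran from 9.68% of the NC mean, for TYMS, to 90.8%, for ORC2, with a median of 31.6%. The 56 genes together took 0.554%, 0.521% and 0.546% of all counts in the NC libraries and 0.181%, 0.192% and 0.148% in the LINC00862 libraries. On FPKM, LINC00862 replicate 3 was the lowest library of its group for 43 of the 56 genes, and NC replicate 1 the highest of its group for 35. The matching shares over all tested genes are not given here, so these counts may describe whole libraries. Mitochondrially encoded genes took 31.7% of counts in LINC00862 replicate 3, against 21.5% and 20.7% in replicates 1 and 2. Their part in its low levels was not tested.

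**Figure D2:**
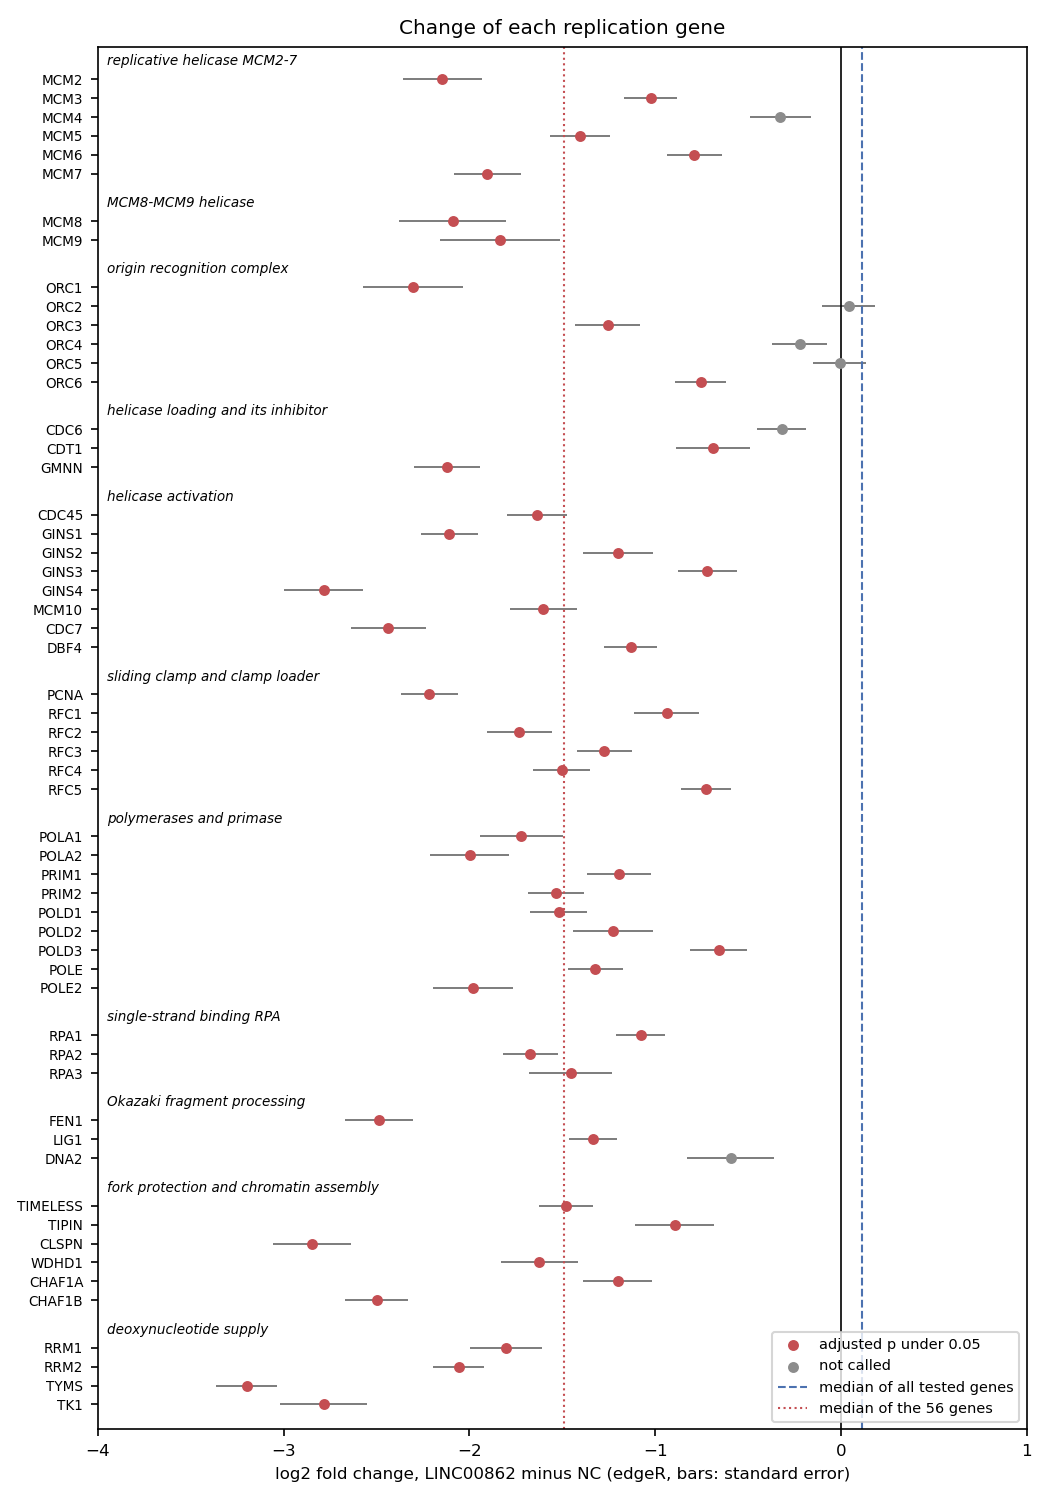
Log2 fold change, LINC00862 minus NC (horizontal axis), of each of the 56 genes grouped by role, with the standard error as a bar. Red points were called lower and grey points not called, the dashed line marks the median of all tested genes (0.11) and the dotted line that of the 56 genes (-1.49); the 50 called genes all sit left of 0.

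**Figure D3:**
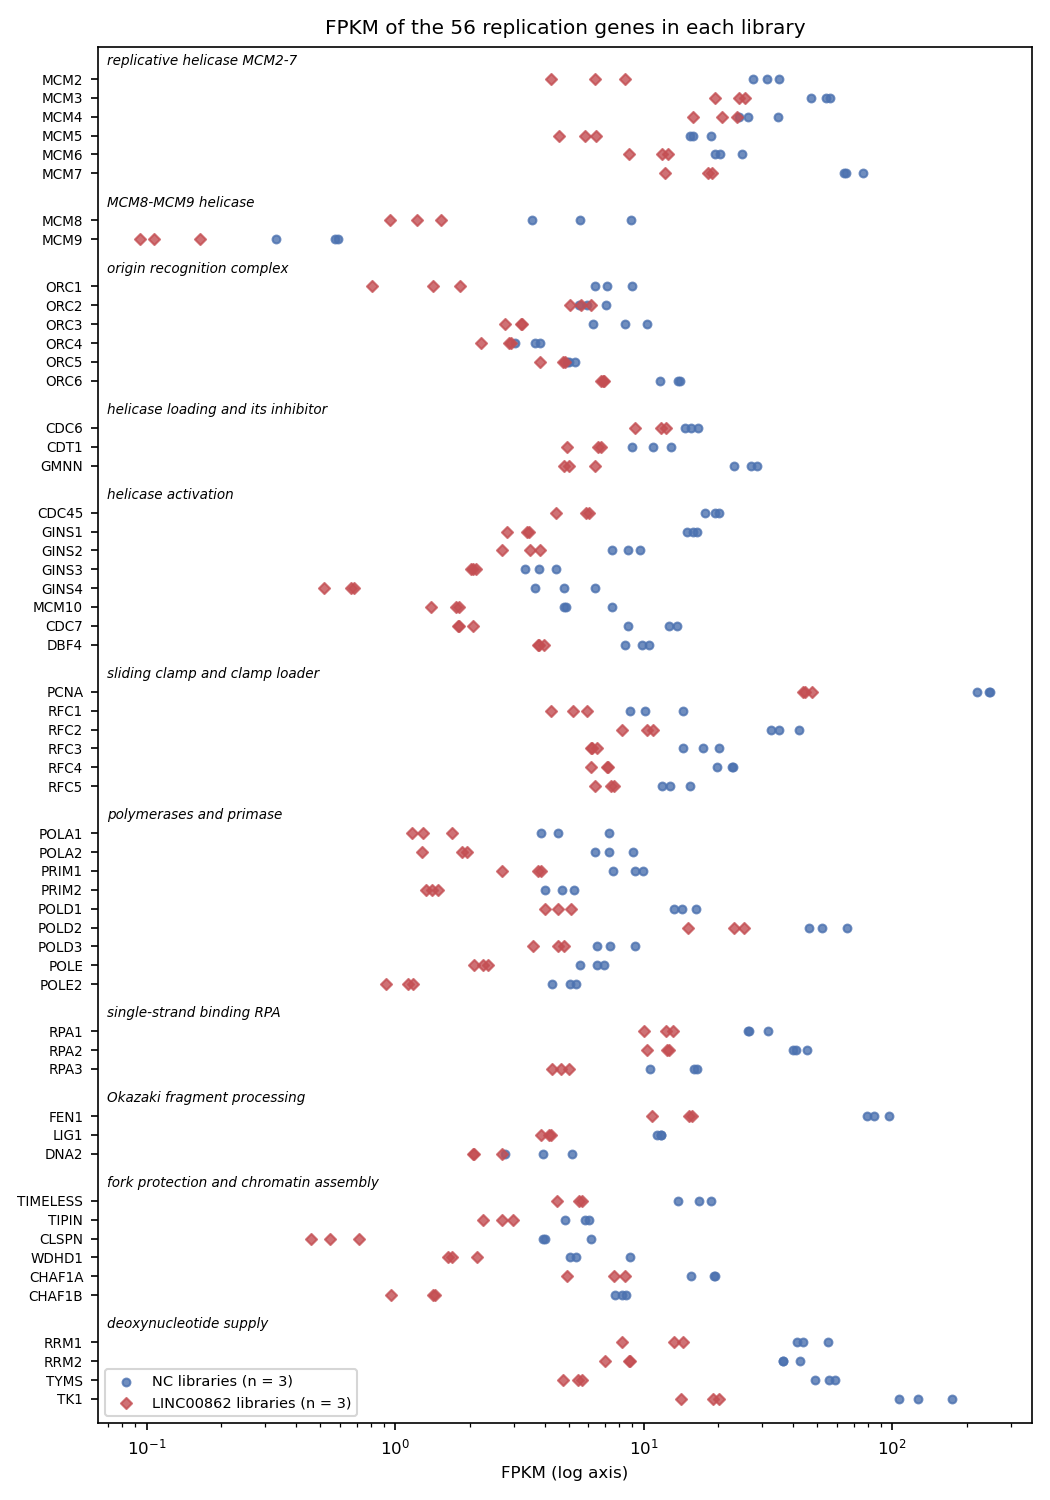
FPKM of each of the 56 genes on a log axis, 1 point per library, with 3 NC libraries as blue circles and 3 LINC00862 libraries as red diamonds. Every LINC00862 library lies below every NC library in each gene but ORC2.

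Values below are FPKM, a level per transcript length and library size, in the order of replicates 1, 2 and 3, and fold changes are log2 differences from edgeR. Of the 6 subunits of the replicative helicase, which unwinds DNA at the fork, 5 fell. MCM2 had 35.1, 27.7 and 31.3 FPKM in NC and 6.37, 8.41 and 4.23 FPKM in LINC00862 (log2 fold change -2.14, standard error 0.21, adjusted p = 2.65e-05). MCM7 was the most abundant subunit of the NC libraries, at 65.0, 64.1 and 76.5 FPKM, and measured 18.2, 18.8 and 12.2 FPKM in LINC00862 (log2 fold change -1.90). MCM3 was the most abundant in LINC00862, at 24.1, 25.5 and 19.4 FPKM against 54.3, 47.4 and 56.1 FPKM in NC (-1.02). MCM5 had 15.9, 15.4 and 18.6 FPKM in NC and 5.84, 6.45 and 4.57 FPKM in LINC00862 (-1.40). The groups did not overlap in any of these genes, and MCM6 fell by less than 2-fold (-0.79). MCM4 was the subunit not called, at 34.8, 26.4 and 24.2 FPKM in NC and 20.7, 23.8 and 15.8 FPKM in LINC00862 (log2 fold change -0.33, standard error 0.16, adjusted p = 0.11).

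The helicase pair MCM8 and MCM9, which acts in recombination at damaged forks rather than in licensing, fell in both members. MCM8 had 8.94, 5.53 and 3.56 FPKM in NC and 1.22, 1.53 and 0.955 FPKM in LINC00862 (log2 fold change -2.09, standard error 0.29, adjusted p = 0.000212). MCM9 was the scarcest of the 56 genes, at 0.587, 0.576 and 0.333 FPKM in NC and 0.165, 0.107 and 0.0944 FPKM in LINC00862 (-1.84). NC replicate 1 was the highest library for MCM8, and the gene ASF1A, on the other strand from MCM9, had 373% of the counts of MCM9 over the 6 libraries.

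The origin recognition complex, which marks origins and serves as the platform for loading, split. ORC1, the subunit whose level follows the cell cycle most closely, had 9.01, 6.36 and 7.12 FPKM in NC and 1.83, 1.42 and 0.805 FPKM in LINC00862 (log2 fold change -2.30, standard error 0.27, adjusted p = 7.85e-05). ORC3 had 10.3, 8.45 and 6.26 FPKM in NC and 3.25, 3.20 and 2.76 FPKM in LINC00862 (-1.25), and ORC6 fell by less than 2-fold (-0.75). The 3 remaining subunits were not called. ORC2 had 7.09, 5.92 and 5.51 FPKM in NC and 5.05, 6.14 and 5.63 FPKM in LINC00862, with overlapping groups (log2 fold change 0.04). ORC5 had 5.29, 5.00 and 4.90 FPKM in NC and 4.76, 4.83 and 3.85 FPKM in LINC00862 (-0.01). ORC4 had 3.84, 3.67 and 3.04 FPKM in NC and 2.89, 2.93 and 2.22 FPKM in LINC00862 (-0.22). Adjusted p for these 3 was 0.814, 0.969 and 0.217. MCM4, ORC2, ORC4, ORC5, CDC6 and DNA2, the genes that were not called, were singled out after their values had been seen. In 5 of them, ORC2 excepted, FPKM did not overlap between groups although the test on TMM-scaled counts made no call.

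Of the loading factors, the inhibitor fell most. GMNN, the inhibitor of CDT1, had 23.0, 28.7 and 27.2 FPKM in NC and 5.04, 6.36 and 4.79 FPKM in LINC00862 (log2 fold change -2.12, standard error 0.18, adjusted p = 9.01e-06). CDT1, the factor it holds, had 8.96, 10.9 and 12.9 FPKM in NC and 6.72, 6.59 and 4.90 FPKM in LINC00862 (log2 fold change -0.69, standard error 0.20, adjusted p = 0.0133). That call was lost with upper quartile scaling (-0.48) and without LINC00862 replicate 3 (-0.60), with log2 fold changes between -0.85 and -0.48 and a highest adjusted p of 0.0622 over 14 alternatives. CDC6, the ATPase that joins the origin complex before loading, had 16.6, 14.7 and 15.5 FPKM in NC and 11.8, 12.3 and 9.27 FPKM in LINC00862 and was not called (log2 fold change -0.32, standard error 0.13, adjusted p = 0.0611). CDC6 was called lower in 4 of 14 alternatives, with library size only, on both log2 FPKM scales and without NC replicate 1, where its log2 fold change was -0.32.

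All 8 genes of helicase activation fell, 7 of them by at least 2-fold. GINS4, 1 of the 4 GINS subunits, fell most, from 6.38, 4.78 and 3.67 FPKM in NC to 0.686, 0.667 and 0.519 FPKM in LINC00862 (log2 fold change -2.78, standard error 0.21, adjusted p = 5.42e-06). GINS1 had 16.4, 15.0 and 15.8 FPKM in NC and 2.82, 3.45 and 3.39 FPKM in LINC00862 (-2.11), and GINS2 had 7.44, 8.69 and 9.65 FPKM in NC and 3.82, 3.51 and 2.70 FPKM in LINC00862 (-1.20). GINS3 was the member that fell by less than 2-fold (-0.72). CDC7, the kinase that phosphorylates the loaded helicase, had 13.7, 12.7 and 8.62 FPKM in NC and 1.79, 1.81 and 2.06 FPKM in LINC00862 (log2 fold change -2.44, standard error 0.20, adjusted p = 8.41e-06). Its activator DBF4 had 10.5, 9.82 and 8.45 FPKM in NC and 3.81, 3.78 and 3.99 FPKM in LINC00862 (-1.13). CDC45, which joins the active helicase, had 17.7, 19.3 and 20.1 FPKM in NC and 6.06, 5.86 and 4.44 FPKM in LINC00862 (-1.64). MCM10, needed for the helicase to start moving, had 7.45, 4.88 and 4.80 FPKM in NC and 1.75, 1.81 and 1.40 FPKM in LINC00862 (-1.60). In all 8 genes the groups were apart.

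PCNA, the sliding clamp that tethers polymerases to DNA, was the most abundant of the 56 genes. It had 219, 247 and 246 FPKM in NC and 47.6, 44.5 and 44.0 FPKM in LINC00862 (log2 fold change -2.22, standard error 0.15, adjusted p = 2.97e-06), a mean in LINC00862 of 19.1% of the NC mean. The 5 subunits of replication factor C, which opens and closes the clamp, also fell. RFC2 had 32.5, 35.2 and 42.1 FPKM in NC and 10.4, 11.0 and 8.22 FPKM in LINC00862 (-1.73), and RFC4 had 19.7, 22.9 and 22.7 FPKM in NC and 7.12, 7.21 and 6.17 FPKM in LINC00862 (-1.50). RFC3 had 20.1, 17.3 and 14.4 FPKM in NC and 6.49, 6.17 and 6.22 FPKM in LINC00862 (-1.27). RFC1, the large subunit, and RFC5 fell by less than 2-fold (-0.94 and -0.73).

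All 9 polymerase and primase genes fell, 8 of them by at least 2-fold. In the polymerase alpha-primase complex, which lays the primers, POLA2 had 6.36, 7.29 and 9.04 FPKM in NC and 1.86, 1.95 and 1.28 FPKM in LINC00862 (log2 fold change -1.999, standard error 0.21, adjusted p = 4.30e-05). POLA1, its catalytic subunit, had 7.28, 4.51 and 3.88 FPKM in NC and 1.302, 1.70 and 1.17 FPKM in LINC00862 (-1.72). The primase subunit PRIM1 had 9.92, 9.21 and 7.54 FPKM in NC and 3.88, 3.78 and 2.68 FPKM in LINC00862 (-1.19), and PRIM2 had 5.23, 4.69 and 4.02 FPKM in NC and 1.48, 1.41 and 1.34 FPKM in LINC00862 (-1.53). The 4 genes thus lay within 1 log2 unit of each other in their change. POLE, the catalytic subunit of the leading strand polymerase, had 6.49, 6.95 and 5.54 FPKM in NC and 2.08, 2.36 and 2.26 FPKM in LINC00862 (-1.32), and its partner POLE2 had 5.35, 4.27 and 5.05 FPKM in NC and 1.12, 0.923 and 1.18 FPKM in LINC00862 (-1.98). POLD1, the catalytic subunit of the lagging strand polymerase, had 14.3, 13.3 and 16.3 FPKM in NC and 4.51, 5.11 and 4.01 FPKM in LINC00862 (-1.52). POLD2 was the most abundant polymerase gene, at 46.5, 52.5 and 66.2 FPKM in NC and 23.1, 25.3 and 15.1 FPKM in LINC00862 (-1.23), and POLD3 fell by less than 2-fold (-0.66).

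Replication protein A coats the single strands that the helicase exposes, and its 3 subunits all fell. RPA2 had 39.9, 41.0 and 45.6 FPKM in NC and 12.6, 12.4 and 10.3 FPKM in LINC00862 (log2 fold change -1.67, standard error 0.15, adjusted p = 1.38e-05). RPA1 had 31.7, 26.5 and 26.2 FPKM in NC and 12.3, 13.1 and 10.1 FPKM in LINC00862 (-1.08), and RPA3 had 10.6, 15.9 and 16.4 FPKM in NC and 5.01, 4.30 and 4.65 FPKM in LINC00862 (-1.45). Of the genes that finish Okazaki fragments, FEN1, the flap nuclease, had 79.0, 84.9 and 97.2 FPKM in NC and 15.6, 15.3 and 10.8 FPKM in LINC00862 (log2 fold change -2.49, standard error 0.18, adjusted p = 4.20e-06). FADS2, whose annotated body overlaps FEN1 on the same strand, had 237% of the counts of FEN1 over the 6 libraries and fell by 4.61 on the log2 scale. The DNA ligase LIG1 had 11.8, 11.4 and 11.8 FPKM in NC and 4.15, 4.24 and 3.86 FPKM in LINC00862 (-1.34). DNA2, a nuclease that trims long flaps, had 5.14, 3.92 and 2.78 FPKM in NC and 2.06, 2.08 and 2.68 FPKM in LINC00862 and missed the threshold (log2 fold change -0.59, standard error 0.23, adjusted p = 0.0502). It was called lower in 6 of 14 alternatives, among them without NC replicate 3 (-0.76) and without LINC00862 replicate 3 (-0.78).

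All 6 genes of fork protection and chromatin assembly fell. CLSPN, the adaptor through which stalled forks activate the checkpoint kinase CHEK1, fell most, from 6.17, 3.93 and 4.03 FPKM in NC to 0.548, 0.718 and 0.461 FPKM in LINC00862 (log2 fold change -2.85, standard error 0.21, adjusted p = 4.17e-06). TIMELESS, which travels with the fork, had 18.7, 16.8 and 13.7 FPKM in NC and 5.63, 5.49 and 4.48 FPKM in LINC00862 (-1.48), and its partner TIPIN fell by less than 2-fold (-0.90). WDHD1, which links the helicase to polymerase alpha, had 8.78, 5.36 and 5.04 FPKM in NC and 1.63, 2.14 and 1.69 FPKM in LINC00862 (-1.62). CHAF1A and CHAF1B are subunits of the factor that puts histones on new DNA. CHAF1B had 8.54, 7.70 and 8.16 FPKM in NC and 1.45, 1.43 and 0.966 FPKM in LINC00862 (log2 fold change -2.50, standard error 0.17, adjusted p = 2.67e-06), and CHAF1A had 19.1, 15.5 and 19.4 FPKM in NC and 7.62, 8.42 and 4.94 FPKM in LINC00862 (-1.20).

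The 4 enzymes of deoxynucleotide supply had the lowest median log2 fold change of any role, -2.42. TYMS, which makes thymidylate, showed the largest fall of the 56, from 49.2, 55.7 and 58.8 FPKM to 5.63, 5.47 and 4.74 FPKM (log2 fold change -3.20, standard error 0.16, adjusted p = 5.07e-07). TK1, the thymidine kinase of S phase, had 107, 128 and 175 FPKM in NC and 19.1, 20.2 and 14.2 FPKM in LINC00862 (log2 fold change -2.78, standard error 0.24, adjusted p = 1.02e-05). Both subunits of ribonucleotide reductase, which makes deoxynucleotides from ribonucleotides, fell. RRM1 had 55.3, 43.9 and 41.5 FPKM in NC and 13.3, 14.4 and 8.19 FPKM in LINC00862 (-1.80). RRM2, the subunit limiting in S phase, had 42.7, 36.5 and 36.4 FPKM in NC and 8.75, 8.86 and 7.00 FPKM in LINC00862 (-2.06). In none of the 4 did the groups overlap.

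The transcripts of the same complex did not fall by the same amount. Summed over subunits, the level in LINC00862 was 27.9% of that in NC for GINS, 33.4% for RPA, 35.2% for RFC, 37.7% for MCM2-7 and 55.0% for the origin recognition complex. Shares of a subunit in that sum are given from NC to LINC00862 as mean ± SD (n = 3 libraries each). Within MCM2-7, MCM2 went from 14.3% ± 0.856 to 7.54% ± 1.16 and MCM7 from 31.3% ± 2.77 to 19.8% ± 1.06. The share of MCM4 went the other way, from 13.0% ± 2.24 to 24.3% ± 0.580. So did those of MCM3, from 24.0% ± 0.630 to 28.1% ± 1.64, and MCM6, from 9.80% ± 0.934 to 13.4% ± 0.279. MCM5, from 7.60% ± 0.659 to 6.83% ± 0.183, overlapped between the groups. The helicase subunits thus stood in other proportions in the 2 groups. Within the origin recognition complex ORC1 went from 17.1% ± 2.08 to 5.54% ± 1.88 and ORC2 from 14.1% ± 0.339 to 23.4% ± 2.62. ORC1 was thus the scarcest of the 6 subunits in LINC00862. Within GINS, GINS1 went from 47.5% ± 1.11 to 34.9% ± 4.49 and GINS3 from 11.6% ± 1.303 to 22.4% ± 1.24. Of the 4 small RFC subunits, 2 differed in share. RFC2 went from 36.6% ± 5.19 to 27.9% ± 1.37 and RFC5 from 13.3% ± 1.63 to 20.2% ± 0.112. RPA2 went from 49.8% ± 1.69 to 41.7% ± 0.474, and RPA1 from 33.4% ± 4.67 to 41.7% ± 1.92. Of 24 subunit shares, 18 reached the smallest exact permutation p that 3 against 3 allows, 0.1 (two-sided), without adjustment, and those of MCM5, ORC6, RFC1, RFC3, RFC4 and RPA3 did not. The shares of a complex add up to a fixed whole, so the 24 are not independent of each other. A ratio within a library shows unequal change and not which subunit moved.

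**Figure D4:**
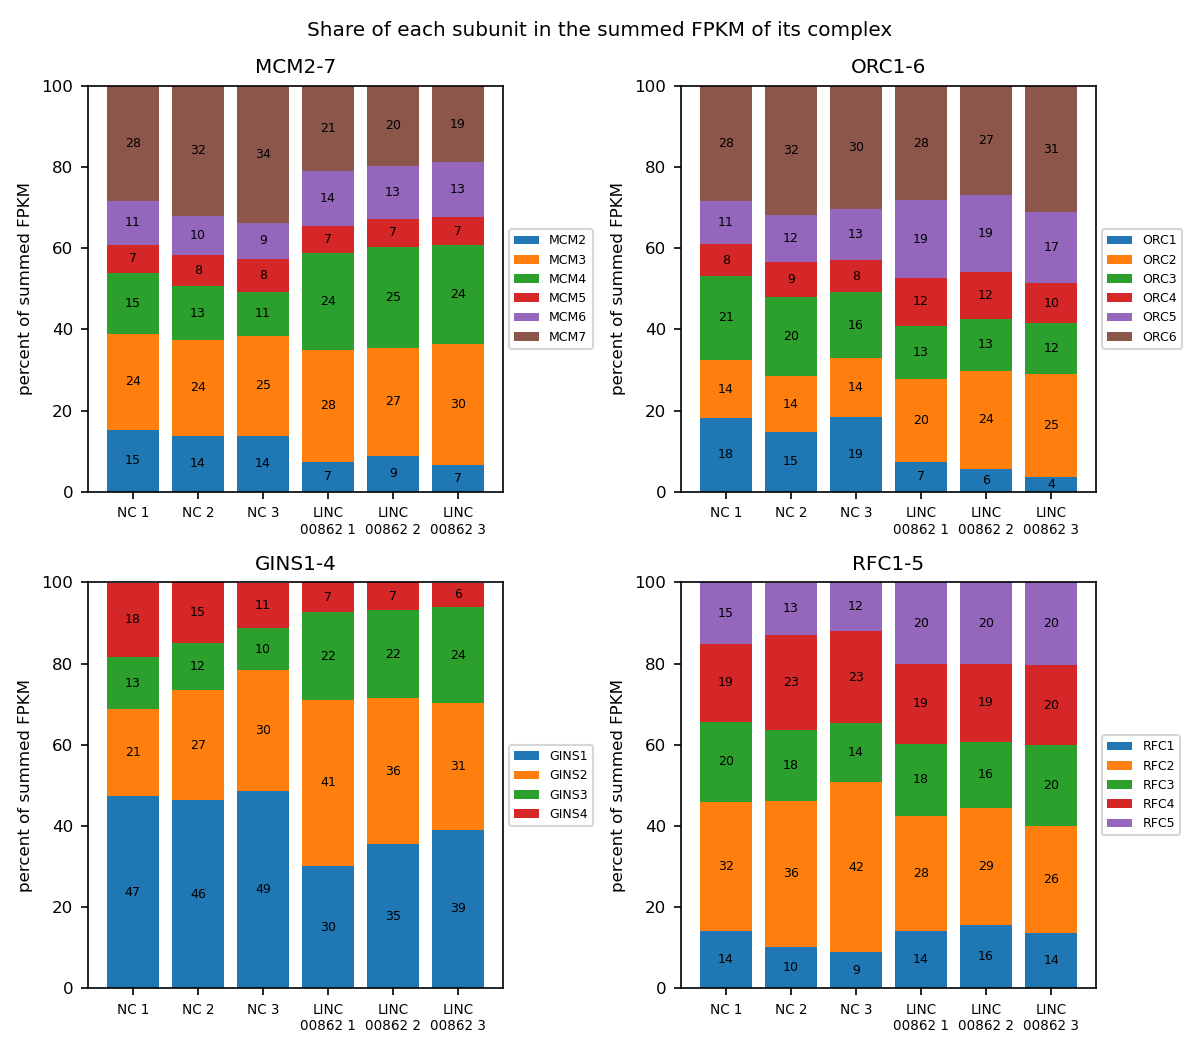
Percent of the summed FPKM of a complex (vertical axis, 0 to 100) that each subunit holds in each of the 6 libraries, for MCM2-7, ORC1-6, GINS1-4 and RFC1-5, with rounded percents in the bars. ORC1 falls from 17.1% to 5.54% of its complex and MCM4 grows from 13.0% to 24.3% of its own, as means of 3 libraries.

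Some ratios between partners were chosen after their values had been seen. The FPKM ratio of GMNN to CDT1 was 2.44 ± 0.285 (SD, n = 3) in NC and 0.897 ± 0.128 (SD, n = 3) in LINC00862. The ratio of CDC7 to its activator DBF4 was 1.20 ± 0.158 (SD, n = 3) in NC and 0.489 ± 0.0246 (SD, n = 3) in LINC00862. For RRM2 over RRM1, which form one enzyme, it was 0.827 ± 0.0537 (SD, n = 3) in NC and 0.710 ± 0.128 (SD, n = 3) in LINC00862, with overlapping libraries (exact two-sided permutation p = 0.3). In the first 2 ratios the libraries of the groups were apart.

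Genes around the 56 were read from further lists. Of 24 other fork factors 20 fell, 1 rose and 3 were not called (median -1.16). MCMBP, which binds free MCM subunits, fell by 2.42 on the log2 scale, and ASF1B, a histone chaperone, by 2.48. RECQL4, a helicase of replication initiation, fell by 1.998. POLD4, the smallest subunit of the lagging strand polymerase and the single gene that rose, had 4.75, 7.05 and 9.57 FPKM in NC and 35.6, 31.3 and 27.7 FPKM in LINC00862 (log2 fold change 2.29, standard error 0.27, adjusted p = 8.27e-05). Its FPKM ratio to POLD1, also chosen after its value was seen, was 0.483 ± 0.133 (SD, n = 3) in NC and 6.97 ± 0.878 (SD, n = 3) in LINC00862. Of the 9 genes of the KEGG replication pathway outside the 56, 5 fell, 1 rose and 3 were not called (median -0.78), with POLD4 the riser and POLE4 (-1.94), RNASEH2A (-1.64) and POLE3 (-1.46) the largest falls.

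Of 18 E2F, pocket protein and MuvB genes, which time the transcription of the replication genes, 11 fell, 3 rose and 4 were not called (median -0.70). MYBL2, which carries the program on into mitosis, fell by 3.80, the repressor E2F7 by 2.52 and TFDP1, the dimer partner of E2F factors, by 2.43 on the log2 scale. E2F5, a partner of the pocket proteins, had 0.281, 0.302 and 0.182 FPKM in NC and 1.46, 1.28 and 1.58 FPKM in LINC00862 (log2 fold change 2.67, standard error 0.28, adjusted p = 3.63e-05). E2F4 (0.44) and E2F6 (0.38) were called higher by small amounts, calls that held in 5 and 4 of 14 alternatives, and the FPKM of E2F6 overlapped between groups. Among the 49 replication genes with promoter entries, an E2F word was found in 47.4% of those that fell at least 2-fold and in 45.5% of the others. The median log2 fold change was -1.72 with the word and -1.51 without it.

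Of 16 genes of the S phase checkpoint and of the turnover of licensing factors, 9 fell, 2 rose and 5 were not called (median -0.72). CUL4B (-1.92) and RBX1 (-1.68), parts of the ubiquitin ligases that remove CDT1, and the phosphatase CDC25A (-1.71) fell most. RAD9A and RAD1, which sit with HUS1 in the checkpoint clamp, rose. RAD9A had 3.18, 4.75 and 5.58 FPKM in NC and 23.4, 22.3 and 25.1 FPKM in LINC00862 (log2 fold change 2.55, standard error 0.25, adjusted p = 2.49e-05), and RAD1 had 4.92, 4.39 and 4.01 FPKM in NC and 9.44, 9.38 and 7.62 FPKM in LINC00862 (log2 fold change 1.16, standard error 0.13, adjusted p = 6.78e-05).

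Of 19 other nucleotide synthesis genes 11 fell, 1 rose and 7 were not called (median -0.79). SAMHD1, which breaks deoxynucleotides down and so works against RRM1 and RRM2, had 8.94, 5.85 and 5.99 FPKM in NC and 0.592, 0.546 and 0.466 FPKM in LINC00862 (log2 fold change -3.50, standard error 0.18, adjusted p = 5.77e-07). DTYMK, the kinase that acts after TYMS and TK1, fell (-2.10). SHMT2, a mitochondrial enzyme of folate metabolism, rose (1.28). RRM2B, the ribonucleotide reductase subunit used outside S phase, stood to RRM2 at an FPKM ratio of 0.134 ± 0.0379 (SD, n = 3) in NC and 0.778 ± 0.0401 (SD, n = 3) in LINC00862, chosen after its value was seen. RRM2B itself was not called (log2 fold change 0.47, edgeR adjusted p = 0.0821) and its FPKM overlapped between groups, while RRM2 fell (-2.06).

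All 20 mitotic genes fell, with a median of -2.42 against -1.49 for the 56 replication genes. CDC20, the activator of the anaphase ubiquitin ligase, had 88.1, 94.5 and 114 FPKM in NC and 6.60, 6.31 and 3.92 FPKM in LINC00862 (log2 fold change -3.98, standard error 0.23, adjusted p = 1.01e-06). MKI67, the proliferation marker Ki-67, had 34.0, 18.6 and 18.5 FPKM in NC and 2.18, 2.00 and 1.80 FPKM in LINC00862 (log2 fold change -3.38, standard error 0.23, adjusted p = 2.59e-06), and the kinesin KIF20A fell by 3.17 on the log2 scale. The difference between these medians was not tested.

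Annotated genes overlap 33 of the 56, and in 14 the overlapping gene had at least 10% of the counts of the replication gene. Among these are the pairs FEN1 with FADS2, TYMS with ENOSF1, RFC4 with EIF4A2, PRIM1 with NACA, GINS2 with GSE1 and CHAF1B with MORC3. FADS2, NACA and MORC3 lie on the same strand as the gene they overlap, so counting by strand would not separate them from it. For pairs on opposite strands, whether the deposited counting used strand is not given in the sources used here. Part of the counts of these genes could thus belong to their neighbours.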

How the data were processed

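RNA-seq libraries of HCCLM3 cells, 3 of LINC00862 overexpression and 3 of NC, were read from the table the authors deposited, which holds whole-number read counts per gene, not normalized, and FPKM, which the authors scaled by transcript length and mapped fragments. The submitters' processing notes name cutadapt 1.9, HISAT2 2.0.4, UMI-tools, StringTie 1.3.4d and the build hg38; whether duplicate molecules were collapsed and whether counting used strand is not given in the sources used here. Total counts were 58241123 to 68229070 per library, and no pair of libraries agreed within sampling noise.

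Counts were fitted with edgeR 4.0.16 in R 4.3.3 (filterByExpr, TMM scaling, quasi-likelihood test, Benjamini-Hochberg adjustment over 20741 genes, threshold 0.05). The script was tested on simulated data. Single ratios and shares were compared by exact permutation tests over libraries. Alternatives were DESeq2 1.42.0, upper quartile scaling, library size only, no filter, a replicate block, limma 3.58.1 on log2(FPKM + 1) and log2(FPKM + 0.1), a false discovery rate of 0.01, a fold test at 1.5, each library left out, and no mitochondrially encoded genes. Promoter windows came from RefSeq (GRCh38.p14), the exons checked against the promoter stretches from GENCODE, and overlaps from the gene coordinates that the authors deposited. The members and lists were chosen with earlier results of these data known. In each role, called members that changed at least 2-fold are given by library, and the rest by count and fold change, except CDT1 and the 6 members not called, given by library after their values were seen. In other lists up to 3 called genes in each direction are named, and 1 gene that this rule gives is not reported here.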

Additional observations from a re-analysis of the deposited data

How the results depend on the processing

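The count of replication genes called lower lay between 49 and 52 over the other scalings, filters and tests, and was 43 when edgeR tested against a fold of 1.5. None was called higher in any of them. Of the 50, 49 were called lower in each of 14 alternatives, which leave out the fold test at 1.5 and the false discovery rate of 0.01. CDT1 was the exception, and it also lost its call in both of those left out. The share of all called genes that held in each alternative is not given here. The median of all tested genes changed sign, from 0.11 to -0.051 with library size only, to -0.013 on log2(FPKM + 1) and to -0.033 on log2(FPKM + 0.1). The median of the replication genes lay -1.60 from it under TMM, DESeq2, upper quartile and library size scaling. A change of scaling moves all genes by about the same amount, so this distance could hardly differ between them. It was -1.34 on log2(FPKM + 1), -1.57 on log2(FPKM + 0.1) and -1.88 without the filter. Called genes were 53.6% higher, 60.4% under upper quartiles and 48.5% by library size alone. The 3 E2F, pocket protein and MuvB genes called higher became 6 under upper quartiles and 1 with library size only, without the filter, with the replicate block, on either log2 FPKM scale, against a fold of 1.5 and at a false discovery rate of 0.01, and ranged from 1 to 5 when 1 library was left out (5 without NC replicate 1, 3 without NC replicate 3, 1 without any other). The 1 other nucleotide synthesis gene called higher became 3 with DESeq2 and with upper quartile scaling, and 1 to 3 when 1 library was left out (3 without NC replicate 1, 2 without LINC00862 replicate 3). The 1 KEGG gene called higher became 2 without NC replicate 1 and stayed at 1 otherwise. The cause was not tested. Same-numbered libraries did not deviate together (correlations of -0.05, -0.03 and -0.01), and with the replicate block 50 replication genes were called lower. Leaving out the mitochondrially encoded genes before scaling was added after seeing the data. Of the values for single genes, 892 kept their call, 10 gained it, 10 lost it and 0 reversed. Depth limits little here, since the scarcest gene had 80 counts.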

Other observations

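Genes that overlap the replication genes on the other strand moved apart from them in several places. GSE1, which covers GINS2, rose by 2.44 on the log2 scale (edgeR, standard error 0.22, adjusted p = 1.44e-05) while GINS2 changed by -1.20. TYMSOS, transcribed from the other strand at the start of TYMS, had 74, 98 and 112 counts in NC and 364, 219 and 194 counts in LINC00862 (log2 fold change 1.51, standard error 0.33, adjusted p = 0.00301), against -3.20 for TYMS. ENOSF1, at the other end of TYMS, was not called (0.33, adjusted p = 0.118). NACA, which overlaps PRIM1 on the same strand with 3905% of its counts, was not called either (-0.06, adjusted p = 0.833), and PRIM1 changed by -1.19. EIF4A2, opposite RFC4, changed in the same direction as RFC4 but by less, -0.51 (adjusted p = 0.0123) against -1.50. Further pairs also moved the same way, among them ASF1A with MCM9 on opposite strands (-0.999 and -1.84). On the same strand, so did MORC3 with CHAF1B (-0.85 and -2.50) and FADS2 with FEN1 (-4.61 and -2.49). These pairs were chosen after their values were seen.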
